A study of Arabidopsis thaliana with 6 samples.

Results

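The genes described here are 7 Arabidopsis genes of plant immunity, a group built around salicylate signalling and the synthesis of pipecolate. They are AT5G03350 (a legume-type lectin), AT5G52810 (SARD4), SAG101, CHI (AT2G43570, a chitinase), RING1 (AT5G10380), AT5G52760 (a heavy-metal-associated domain protein) and AT1G35710 (a leucine-rich repeat receptor kinase). Each was represented by 1 probe set, of 13513 probe sets named as 1 gene and 22746 probe sets in all. They were chosen by their intensity, which was high in line 4 against the control, so that difference is described below and carries no test.

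The series set out to study CDPK6, a protein kinase that calcium activates, in plant development. RNA of whole Col-0 seedlings, in pools of about 40 plants grown at 22 °C under 16 h of daily light, was measured on 6 Affymetrix ATH1 arrays. The control line aeq+ carries an Aequorin transgene, which encodes a light-emitting calcium reporter, and had 2 arrays. A line named cdpk6-yfp 4 (line 4) had 2 arrays, a line named cdpk6-yfp-1 (line 1) had 1, and both are labelled as carrying a cdpk6-yfp transgene. For 1 further array the strain label says cdpk6-yfp-1, whereas the name in its title (Kan-3) and its source name point to the control. The code in its title (A3-1) is numbered with that of the line 1 array (A3-2), whereas the control titles carry A1-1 and A1-2. This further array was put in no group and is called the Kan-3 array below, after its title. Seedling age, the promoter of the transgene and whether lines 4 and 1 also carry Aequorin are not given in the sources used here, and line 1 and line 4 are each a single line.

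All arrays had been scaled to the same trimmed mean of 100.01 intensity units, and their medians lay between 44.2 and 46.4 units. Scanner background averaged 142.62 on control replicate 2 and 89.78 to 95.64 on the other 5 arrays. The ratio of 3′ to 5′ actin signal, a measure of RNA quality, was 4.27 and 4.30 in the control, 3.19 and 3.48 in line 4, 4.17 in line 1 and 4.67 on the Kan-3 array. The same ratio for GAPDH was 1.79 and 1.71 in the control, 1.54 and 1.43 in line 4, 1.58 in line 1 and 1.67 on the Kan-3 array. Both ratios were thus lowest in line 4, where the immunity genes were high. For GAPDH, line 1, where they were not high, was close to line 4. The part of RNA quality in the difference of these genes was not tested. Of the markers fixed for the labelled tissue, RCA, the activase of Rubisco in green tissue, read 2585.8 to 3588.0 units and EXPA7 and EXPA18, expansin genes of root hairs, read 23.7 to 50.5, while the flower and pollen marker list had 1 gene on the array, AT3G01240, at 0.4 to 3.3. In limma none of RCA and the 2 expansin genes passed between line 4 and the control (adjusted p = 0.262, 0.355 and 0.505). RCA stood at -0.21 on the log2 scale, and without control replicate 2 it was lower in line 4 by -0.34 (limma adjusted p = 0.0108). In whole seedlings, fewer cells that express a gene and less RNA per cell cannot be told apart.

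In plants, recognition of a pathogen is relayed through the lipase-like proteins EDS1, PAD4 and SAG101 and leads to the accumulation of salicylate and of N-hydroxypipecolate. These signals reinforce each other and switch on a broad set of defence genes, among them chitinases, lectins and further receptor kinases, in the infected leaf and in distant leaves. Calcium-dependent protein kinases act early in this relay.

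Of the genes that make or relay these signals, SARD4 and SAG101 were the 2 members. SARD4 (AT5G52810) encodes a reductase that makes pipecolate from its dehydro precursor. It read 53.7 and 47.1 units in the control, 356.3 and 257.9 in line 4, 32.8 in line 1 and 35.2 on the Kan-3 array. Line 4 lay 2.59 ± 0.16 (SE, n = 2 against 2) above the control on the log2 scale, a 6.03-fold difference, and its replicates differed from each other by 0.47, the widest gap of the 7 genes between the line 4 arrays. The other 2 arrays were both under the control arrays. SAG101, a partner of EDS1 in immune signalling and cell death, read 34.0 and 44.9 units in the control and 77.2 and 69.7 in line 4, a 1.88-fold difference (0.91 ± 0.18 on the log2 scale). This was the smallest of the 7 differences, and the control replicates alone were 0.40 apart on that scale. Line 1 (45.6) was level with the higher control array and the Kan-3 array (28.8) was below both.

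The members that encode membrane proteins of recognition and cell death were AT1G35710 and RING1. AT1G35710, a receptor kinase related to MIK2, read 29.3 and 34.1 units in the control, 250.3 and 221.9 in line 4, 23.6 in line 1 and 28.0 on the Kan-3 array. It was 7.46-fold higher in line 4 (2.90 ± 0.15 on the log2 scale), with no overlap, and 0.42 below the control in line 1. RING1, a plasma membrane ubiquitin ligase that promotes programmed cell death, read 83.3 and 104.7 units in the control, 604.2 and 545.1 in line 4, 59.1 in line 1 and 63.9 on the Kan-3 array. Its difference in line 4 was 6.15-fold (2.62 ± 0.12), and both of the other arrays were again below the control arrays.

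The other members encode the lectin, the chitinase and the heavy-metal-associated domain protein. AT5G03350 is a legume-type lectin gene known to be induced by salicylate. Its intensity was 59.0 and 58.4 units in the control and 1330.7 and 1385.1 in line 4, a 23.1-fold difference (4.53 ± 0.08 on the log2 scale) that ranked 9 of the 13647 probe sets compared. It read 83.1 in line 1 and 75.4 on the Kan-3 array, so that all arrays other than the controls were above both control arrays. CHI, a chitinase, an enzyme that cuts the chitin of fungal cell walls, read 56.4 and 58.6 units in the control, 411.6 and 341.9 in line 4 (6.53-fold, 2.71 ± 0.12), 42.6 in line 1 and 68.1 on the Kan-3 array. The last 2 lay on opposite sides of the control.

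AT5G52760, which has the domain of copper-binding chaperones, showed the widest range of the 7 genes on the log2 scale. It stood at 27.0 and 28.2 units in the control, 453.0 and 436.6 in line 4, 8.6 in line 1 and 3.2 on the Kan-3 array. Line 4 was 16.1-fold above the control (4.01 ± 0.13), whereas line 1 was 3.21-fold and the Kan-3 array 8.62-fold below it. The latter values are low. The mean noise of these 2 arrays, 5.98 and 5.95, is given with the scanner background, and its units may differ from those of the scaled intensities. With 10 units added to every value before log2, the differences were 3.60 for line 4, -1.02 for line 1 and -1.51 for the Kan-3 array.

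**Figure D1:**
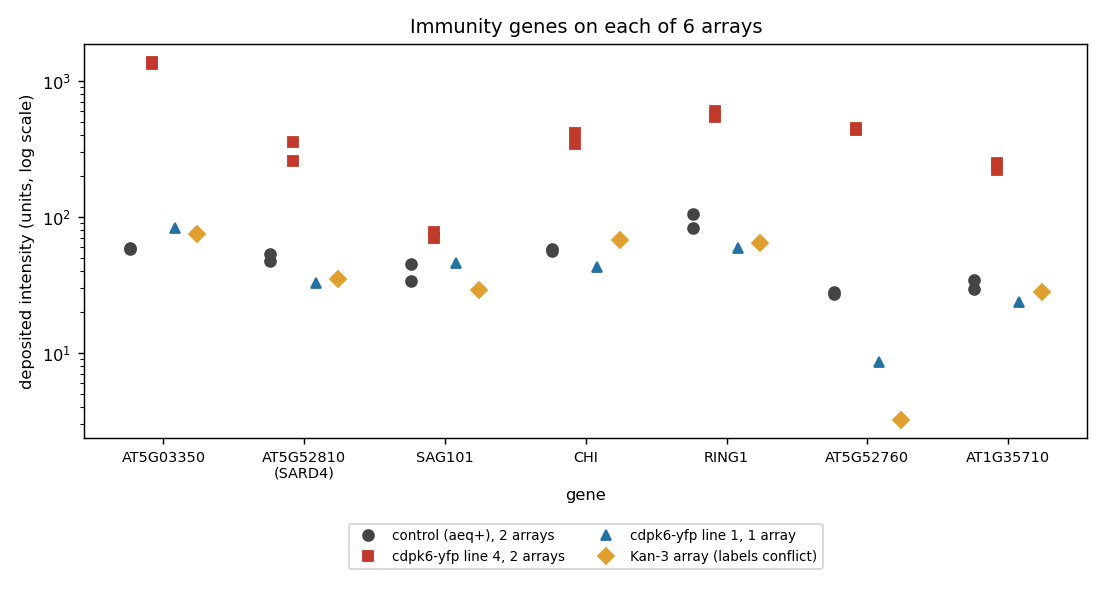
Deposited intensity (log axis) of the 7 immunity genes, with a point for each of 6 arrays: 2 control, 2 line 4, 1 line 1 and the Kan-3 array, whose labels conflict. The line 4 points lie above all other points for every gene, narrowly for SAG101 (69.7 and 77.2 against at most 45.6), and AT5G52760 is low on the line 1 array (8.6) and on the Kan-3 array (3.2).

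Across the 7 genes, the log2 difference of line 4 from the control ran from 0.91 to 4.53 with a median of 2.71, where the median of all 13647 probe sets was -0.03. Both line 4 arrays were above both control arrays for all 7, as the choice of the genes brings with it, and for 26.8% of all probe sets. Of all probe sets, 8.10% passed as higher in line 4 at a limma adjusted p of 0.05. The replicates within a group differed by less, by -0.47 to 0.06 between line 4 arrays and by -0.19 to 0.40 between control arrays. The gap of 0.40 was that of SAG101, whose line 4 difference was 0.91. All 7 passed the filter on dim probe sets, a mean level of 29.6 units, but AT5G52760 did so through its line 4 values and lay under that level in the control. With the Kan-3 array counted as control, the differences in line 4 remained between 1.06 and 5.05, and over 12 settings none fell below 0.71, the value of SAG101 without control replicate 1.

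Line 1, which had 1 array and so no replicate check, did not show these high values. Its log2 differences from the control ran from -1.68 for AT5G52760 to 0.50 for AT5G03350, with a median of -0.43 where the median of all probe sets was 0.03. Between them lay RING1 at -0.66, SARD4 at -0.62, CHI at -0.43, AT1G35710 at -0.42 and SAG101 at 0.22. The line 1 array was below both control arrays for 5 of the 7 genes, a position it had for 36.1% of all probe sets. For the same 5 genes both line 4 arrays were above both controls, and 7.06% of all probe sets had line 4 above and line 1 below in this way, but the line 4 side of it was fixed by the choice of the genes. AT5G52760 was the 1 member at least 2-fold lower and outside both controls, as were 2.95% of all probe sets, and no member was at least 2-fold higher (1.11% of all). Both lines were set against the same 2 control arrays, so their differences are not independent of each other.

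The Kan-3 array lay below both controls for 5 of the 7 genes (36.6% of all probe sets), with a median difference of -0.44. For 4 genes, SARD4, RING1, AT5G52760 and AT1G35710, it and the line 1 array were both below both controls, which held for 21.9% of all probe sets. Whether that array belongs to line 1 is not settled by the labels.

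Other genes of these pathways came from 11 lists, which hold 106 genes besides the members. On the array 30 of them were named, and 15 passed the filter on dim probe sets. The lists were chosen with earlier results of these data known, and some hold relatives or neighbours of members. Their counts are thus not independent of the choice of the members. In limma, 10 of the 15 rose in line 4 and 0 fell, against 8.10% and 7.37% of all probe sets, and 7 of the 10 rose at least 2-fold, as did 1.61% of all probe sets. At an unadjusted p under 0.05, 13 of the 15 were higher and 0 lower. The share of all probe sets at that looser threshold is not given here, so these counts have no background beside them. The median of the 15 was 0.51 on the log2 scale, beside -0.03 for all probe sets. Of the 15, AT2G43620 passed the filter only through its line 4 values. Without that filter, 8 of all 30 rose and 0 fell, where 3.26% of the 22746 probe sets rose and 515 of the 22746 fell. So few fell among all probe sets that 0 of 30 says little. At an unadjusted p under 0.05, 0 of the 30 were lower, again with no share of all probe sets given. The lists for salicylate synthesis and its regulators had no gene named on the array, and PR1, ICS1, EDS1, PAD4, ALD1 and FMO1 were not analysed here.

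Among genes that handle or read salicylate, 2 of the 3 that passed the filter rose, against 8.10% of all probe sets. UGT76B1, a glucosyltransferase that conjugates salicylate and N-hydroxypipecolate, read 45.9 and 64.0 units in the control and 249.5 and 205.2 in line 4, a rise of 2.06 ± 0.17 (SE, n = 2 against 2, limma adjusted p = 6.62e-05). Its line 1 value of 77.2 was above both controls. GRX480, a glutaredoxin and partner of TGA transcription factors, read 35.1 and 41.0 units in the control, 138.2 and 118.8 in line 4 and 25.0 in line 1. Its rise in line 4 was 1.76 ± 0.16 (limma adjusted p = 0.000145). WRKY53, a transcription factor gene of defence and leaf senescence, stood at 86.9 and 83.2 units in the control and 117.5 and 109.5 in line 4 (0.42 ± 0.13, limma adjusted p = 0.0576), and at 21.6 in line 1 and 24.2 on the Kan-3 array. GRX480 did not pass with that array as control (adjusted p = 0.116). WRKY53 passed with 10 units added (0.0497) and with a replicate block (0.0216). The block fit used only the control and line 4 arrays and had 1 residual degree of freedom. EDS1B (AT3G48080), a copy of EDS1, was under the filter at 6.5 to 23.2 units.

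Of the other pattern receptors and their kinases, MIK2 (AT4G08850), the receptor of SCOOP peptides, and BIK1, a kinase that acts below several pattern receptors, passed narrowly. MIK2 read 159.7 and 209.5 units in the control and 248.5 and 243.8 in line 4 (0.43 ± 0.12, limma adjusted p = 0.0445), and BIK1 read 171.4 and 179.6 against 269.7 and 208.0 (0.43 ± 0.12, 0.0395). These calls were lost under most alternatives, among them no filter on dim probe sets (adjusted p = 0.134 and 0.124) and quantile normalization (0.0796 and 0.0665). EFR, the receptor of bacterial elongation factor Tu, was under the filter at 1.1 to 16.0 units.

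Chitinase genes were the best covered list, with 7 genes besides CHI above the filter, of which 4 rose and 0 fell, against 8.10% and 7.37% of all probe sets. Of the 4, AT2G43620 passed the filter only through its line 4 values, and the call of AT2G43590 was lost under most alternatives. AT3G47540 read 58.3 and 37.2 units in the control and 182.8 and 163.6 in line 4, a rise of 1.89 ± 0.20 (SE, limma adjusted p = 0.00034). AT4G01700 rose by 1.39 ± 0.18 (0.00112), AT2G43620 by 1.32 ± 0.19 (0.0019) and AT2G43590 by 0.39 ± 0.09 (0.0219). ChiC (0.51), AT2G43610 (0.40) and AT1G02360 (0.20) did not pass, and 3 further genes were under the filter. No chitinase list gene matched the 2.71 of CHI, but CHI was itself chosen for its high value in line 4. With the Kan-3 array as control, AT2G43590 stood at -0.005 instead of 0.39, since that array read 357.0 units against 164.8 and 149.3, and AT4G01700 and AT2G43620 did not pass (adjusted p = 0.0876 and 0.0627). AT2G43590 also failed to pass with no filter (0.0549), with no variance trend (0.0814), with the Kan-3 array as line 1 (0.781) and without any 1 of control replicate 2 (0.0849), line 4 replicate 1 (0.112) and line 4 replicate 2 (0.105). AT4G01700 also did not pass with the Kan-3 array as line 1 (0.0655). In line 1, AT1G02360 read 33.4 units against 78.6 and 85.4 in the control, and AT2G43590 read 89.9.

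In the lectin list, AT3G16530, a legume-type lectin gene like AT5G03350, read 264.0 and 317.1 units in the control and 1001.1 and 857.0 in line 4, a rise of 1.68 ± 0.11 (SE, limma adjusted p = 1.49e-05). It also read above both controls in line 1 (355.7) and on the Kan-3 array (399.7), as AT5G03350 did. AT1G53070 differed by -0.32 and did not pass, and AT1G53080 and AT1G07460 were under the filter. UGT76B1, AT3G47540 and AT3G16530 passed under all 11 alternatives, with the highest adjusted p (0.0493) for AT3G16530 with the Kan-3 array as control.

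**Figure D2:**
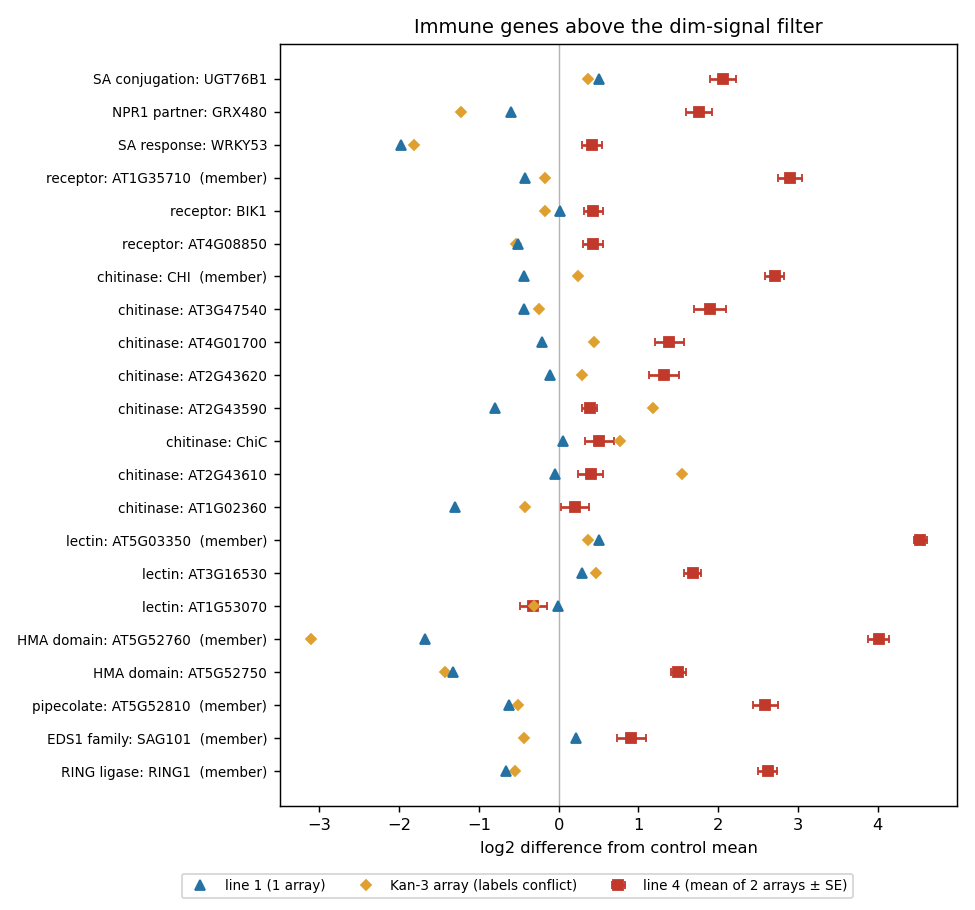
Log2 difference from the control mean for the 7 members and the 15 other immune list genes above the filter on dim probe sets. Squares are line 4 (mean of 2 arrays, bars are the limma SE), triangles are line 1 and diamonds the Kan-3 array, 1 array each; line 4 lies to the right of 0 for all but AT1G53070 (-0.32), and WRKY53, AT5G52750 and AT5G52760 lie left of -1 on both single arrays.

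Several of the genes are near each other in the genome. In the gene order of the TAIR10.1 annotation, used for order only, AT5G52760 and SARD4 (AT5G52810) have 4 protein-coding genes between them, and neither of the 2 that passed the filter, AT5G52780 (-0.06) and AT5G52790 (-0.49), passed the test. AT5G52760 belongs to a row of heavy-metal-associated domain genes. Its neighbour AT5G52750 read 107.7 and 109.0 units in the control, 302.9 and 310.0 in line 4, 43.4 in line 1 and 40.5 on the Kan-3 array. It rose by 1.50 ± 0.09 in line 4 (limma adjusted p = 1.08e-05) and lay 1.32 under the control in line 1, so it was high and low on the same arrays as AT5G52760. The call in line 4 was lost with the Kan-3 array as control (1.97 ± 0.46, adjusted p = 0.186). AT5G52740, under the filter, read 10.4 and 10.0 units in the control and 35.2 and 35.8 in line 4 (limma adjusted p = 0.0295 without the filter), with 12.6 and 8.4 on the single arrays. AT5G52710, AT5G52720 and AT5G52770 were also under the filter, at 0.5 to 30.5 units.

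On the other side of SARD4, AT5G52820 rose by 1.13 ± 0.17 in line 4 (limma adjusted p = 0.00232). It read 74.5 and 50.4 units in the control, 135.7 and 132.2 in line 4, 149.0 in line 1 and 136.4 on the Kan-3 array, so all arrays other than the controls were alike, unlike SARD4 itself. CHI stands in a row of chitinase genes, where the log2 differences in line 4 were 2.71 for CHI itself, which was not tested, 1.32 for AT2G43620, 0.39 for AT2G43590 and 0.40 for AT2G43610, which did not pass. Between them, AT2G43580 (-0.78) and AT2G43600 (-0.13) were under the filter, at 1.2 to 4.5 units. On its other side AT2G43550 and AT2G43560 fell by 0.38 and 0.36 (limma adjusted p = 0.0271 and 0.0135). Within 5 protein-coding genes on each side of the 7 members there were 64 other genes, of which 23 were named and above the filter, and 4 of these rose and 2 fell, where 8.10% and 7.37% of all probe sets did. The 4 that rose were AT5G52750, AT5G52820, AT2G43590 and AT2G43620, the last of which passed the filter only through its line 4 values.

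**Figure D3:**
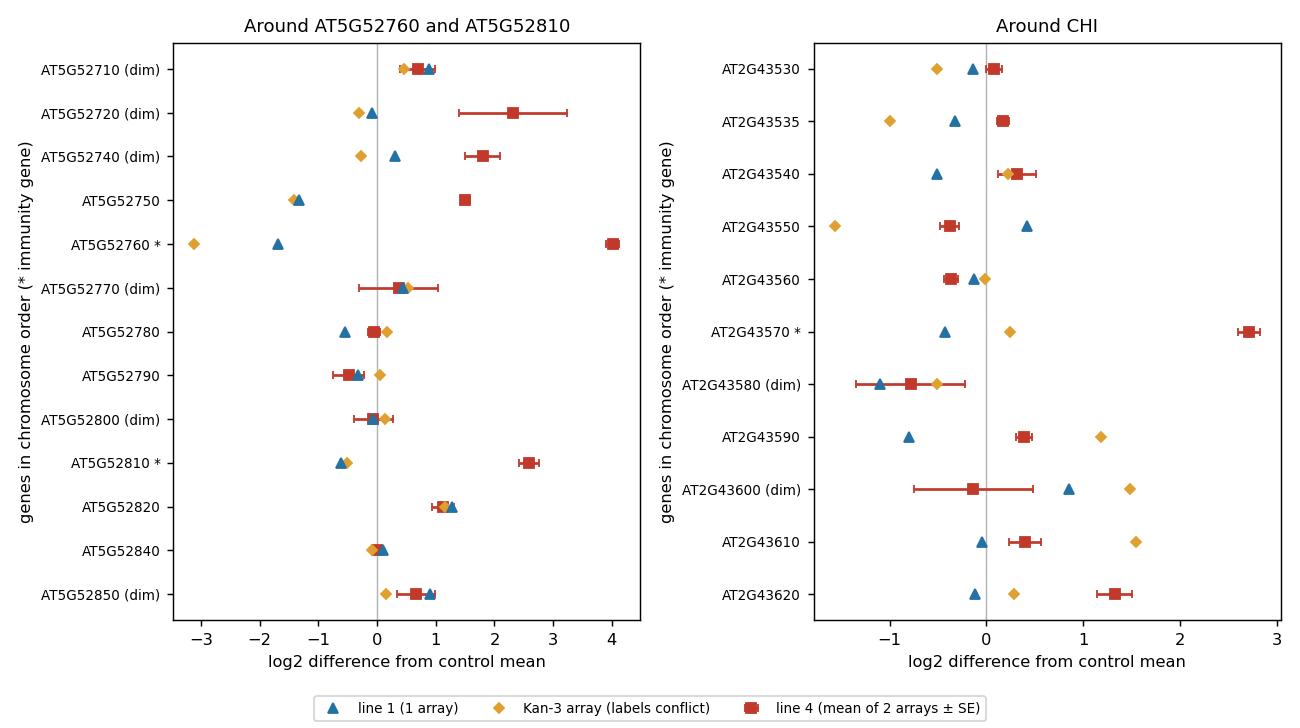
Log2 difference from the control mean for genes in chromosome order around AT5G52760 and AT5G52810 (left) and around CHI, AT2G43570 (right); genes with no named probe set are left out. Squares are line 4 (bars are the limma SE without the dim filter), triangles line 1 and diamonds the Kan-3 array; the 4 genes between AT5G52760 (4.01) and AT5G52810 (2.59) lie between -0.49 and 0.37 in line 4, and AT5G52820 (1.13) is high on all 3 kinds of array.

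Genes most like each member in pattern were sought over all 6 arrays among 1301 probe sets of 1 gene with a log2 range of at least 1. Pearson's r served as the measure of likeness, and since the line 4 arrays stand apart it mainly reflects them. For AT5G03350 these were AT1G43910 (r = 0.9948), an AAA-type ATPase gene, and AT1G23840 (0.9925), and for SARD4 they were LPR2 (0.9969) and AT5G60800 (0.9925). For SAG101 they were AT1G64710 (0.9900) and AT4G35110 (0.9802), and for CHI they were CML41 (0.9967), a calmodulin-like gene, and its chitinase neighbour AT2G43620 (0.9951). Both CML41 and AT2G43620 passed the filter on dim probe sets only through their line 4 values. RING1 was most like CYP71B23 (0.9998), a cytochrome P450 gene, and MSRB9 (0.9955), a methionine sulfoxide reductase gene. AT1G35710 was most like AT1G67800 (0.9982) and again CYP71B23 (0.9960), which read 30.8 and 35.6 units in the control, 105.4 and 100.1 in line 4, 24.7 in line 1 and 27.0 on the Kan-3 array. AT5G52760 was most like AT5G18470 (0.9984), a curculin-like lectin gene, and AT1G11670 (0.9983). AT5G18470 read 66.8 and 73.8 units in the control, 298.5 and 294.4 in line 4, 38.8 in line 1 and 19.5 on the Kan-3 array. The mean of the 7 members was most like CYP71B23 (0.9959), AT1G67800 (0.9947), MSRB9 (0.9932) and AT5G43910 (0.9924).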

How the data were processed

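The deposited values are 1 intensity per probe set and array on a linear scale, from biotin-labelled RNA on 1-colour arrays per the labels. The sources used here do not say how the authors summarised probes. The 126 values of 0 were set to 0.1, the lowest value above 0, and log2 was taken with no further scaling. Leaving out the 64 control probe sets and, of the other 22746, the dimmest 40% by mean log2 on the 5 grouped arrays kept 13647. The lmFit and eBayes functions of limma 3.58.1 (R 4.3.3), with a variance trend, were run on 5 arrays as 3 groups, with 2 residual degrees of freedom, and p-values were adjusted by Benjamini-Hochberg over all probe sets kept, with a threshold of 0.05. The fit was tested on simulated data. Line 1, with 1 array, was described by size.

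Groups follow the strain labels, except for the array whose labels conflict. Its strain label was not followed, and it was left out of the main fit. Nothing says whether pools were grown separately, so a p-value here covers only the spread among pools, and the number of arrays limits the precision. Titles number control and line 4 replicates alike, but nothing pairs them (r = -0.0749 between their replicate differences), so no block was used. Names came from the platform annotation, updated through the TAIR10.1 gene table, and coordinates are not printed since no build is named. The CDPK6 transcript was not analysed here, as neither CPK3 nor CPK6 was among the named probe sets. The members, the 16 gene lists and the tests were chosen with earlier results of these data known. Genes named are all members, up to 4 genes of each list by smallest p, the neighbours in gene order that passed or lie between members, the 2 genes most like each member and the 4 most like their mean. List genes under the filter and neighbours were added to that rule after their values were seen.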

Additional observations from a re-analysis of the deposited data

Results flagged for a closer look

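Line 1 and line 4 lay on opposite sides of the control for 5 of the 7 genes, with both line 4 arrays above and the line 1 array below both control arrays, as were 7.06% of all probe sets. The line 4 side of this was fixed by the choice of the genes. The line 1 differences on the log2 scale were -0.62 for SARD4 (AT5G52810), -0.43 for CHI, -0.66 for RING1, -1.68 for AT5G52760 and -0.42 for AT1G35710, and -1.32 for AT5G52750, the neighbour of AT5G52760. The difference between the lines was not tested, since line 1 has 1 array and the 5 genes were chosen on line 4.

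The Kan-3 array, whose labels conflict and which belongs to no group, was above both control arrays for AT5G03350 (75.4 units) and CHI (68.1). It was at least 2-fold above the control mean for the chitinase genes AT2G43590 (357.0) and AT2G43610 (297.2), where line 1 read 89.9 and 99.2. The share of all probe sets in either position on that array is not given here, so neither observation is set against a background.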

How the results depend on the processing

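The count of probe sets called in line 4 against the control was 2111. It was 1256 with no filter on dim probe sets, 1116 without a variance trend, 88 (80 higher, 8 lower) with the Kan-3 array as control and 183 with it as line 1, and from 1026 to 2035 when 1 array was left out, at 1058 without line 4 replicate 1 and 1026 without line 4 replicate 2. The 10 calls among the immune lists became 3 and 6 with that array as control and as line 1, and 7 to 8 when 1 array was left out. A replicate block, fitted to the control and line 4 arrays alone with 1 residual degree of freedom, gave 2638 and 12 calls. The median of the members in line 4 was 2.51 with 10 units added before log2 in place of 2.71. In line 1 the median of -0.43 became -0.30 with the Kan-3 array as line 1, and the 555 probe sets at least 2-fold from the control became 2527 with no filter and 258 with that array as control. AT2G43590 changed from 0.39 to -0.005 with that array as control. No member changed direction in line 4 in any of the 12 settings, and in line 1 SAG101 went from 0.22 to -0.11 with the Kan-3 array as line 1. The cause of these shifts was not tested.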

Other observations

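Of the 10 genes in the list for the response to jasmonate, a hormone that often opposes salicylate, PDF1.2 was named on the array. This defensin gene was under the filter on dim probe sets, with 3.1 and 4.6 units in the control, 15.6 and 14.3 in line 4, 5.4 in line 1 and 7.0 on the Kan-3 array, and without the filter it did not pass in limma (log2 difference of 1.98, adjusted p = 0.0822).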
